A study of Mus musculus with 6 samples.

Results

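The genes described here write, copy, remove or guard DNA methylation. They are the 10 genes Dnmt1, Dnmt3a, Dnmt3b, Dnmt3l, Uhrf1, Tet1, Tet2, Tet3, Tdg and Zfp57, chosen by name from the 52636 genes of the deposited count table, and all 10 passed the expression filter that left 17849 genes for testing. Gene expression was measured by RNA sequencing in embryoid bodies (EBs), the aggregates in which mouse embryonic stem cells (ESCs) of the line E14 begin to differentiate, on day 3 of differentiation. There were 3 WT and 3 Tnfaip2-/- samples, the WT being the parental E14 line and the Tnfaip2-/- line a single clone that carries a CRISPR-Cas9 mutation with a premature stop in the second exon. By the labels both genotypes were handled alike, in hanging drops and then on gelatin without leukemia inhibitory factor. The replicates therefore measure the spread between samples, and genotype and clone cannot be told apart. Levels are given in counts per 1000000 counts of a sample after scaling (CPM), and the floor of 3 counts used here corresponds to at most 0.138 CPM.

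DNA methylation in mammals sits mainly on cytosines of CG dinucleotides. DNMT3A and DNMT3B place new methyl groups with the help of the inactive partner DNMT3L, DNMT1 copies the pattern after replication at sites recognised by UHRF1, TET enzymes oxidise methylated cytosine, and TDG excises the oxidised bases. In the early embryo, methylation is low in naive pluripotent cells and rises as cells leave that state, while ZFP57 keeps imprinted regions methylated throughout.

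Pluripotency transcripts were still present in these differentiating samples. Pou5f1, the gene of the pluripotency factor OCT4, stood at 769, 749.6 and 761 CPM in WT EBs and at 421, 424 and 412 CPM in Tnfaip2-/- EBs, lower in each Tnfaip2-/- sample. The list of 16 naive pluripotency markers also holds Pou5f1 and Sox2, which are not particular to the naive state. Of the 16, 9 were called higher and 7 lower at an adjusted p below 0.05 in edgeR, beside 34.0% higher and 33.7% lower of all tested genes. Among the higher ones were Sox2, at 278, 284 and 280.1 CPM in WT EBs and 326, 325 and 337 CPM in Tnfaip2-/- EBs, and Nanog, at 251, 255 and 268 and 318, 306 and 305 CPM, each without overlap, and among the lower ones Esrrb, at 227, 232 and 216 and 163, 161 and 160.1 CPM. Tnfaip2 itself lay below the expression filter. Its counts of 7, 4 and 7 in WT EBs against 0, 2 and 2 in Tnfaip2-/- EBs have the direction of the labels, without overlap, at a depth too low to check the knockout further.

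Most genes of DNA methylation were expressed at lower levels in Tnfaip2-/- EBs. In edgeR's quasi-likelihood test with Benjamini-Hochberg adjustment over all tested genes, 10 of the 10 genes had an adjusted p below 0.05, 9 lower and 1 higher (9 of the 10, 8 lower, with upper quartile normalization, where Dnmt1 lost its call). That rule called 67.7% of all tested genes, 33.7% lower and 34.0% higher, so that a call by itself sets a gene little apart. When the test asked for a change of more than 1.5-fold, 8 of the 10 passed, all 8 lower, beside 15.7% of all tested genes, 6.63% lower and 9.05% higher. That count was 7 with upper quartile normalization and without WT replicate 2, Tnfaip2-/- replicate 2 or Tnfaip2-/- replicate 3, where Tet2 no longer passed, and 6 with the DESeq2 Wald test, where Tet1 and Tet2 did not pass. The groups did not overlap for 10 of the 10 genes, as for 69.4% of the tested genes, and for 9 of the 10 with plain totals in place of scaled ones, where Dnmt1 overlapped. The median log2 fold change of the 10 genes, Tnfaip2-/- over WT, was -0.81, against 0.00 over all tested genes. In these bulk samples, fewer cells that express a gene and less RNA of it per cell cannot be told apart.

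**Figure D1:**
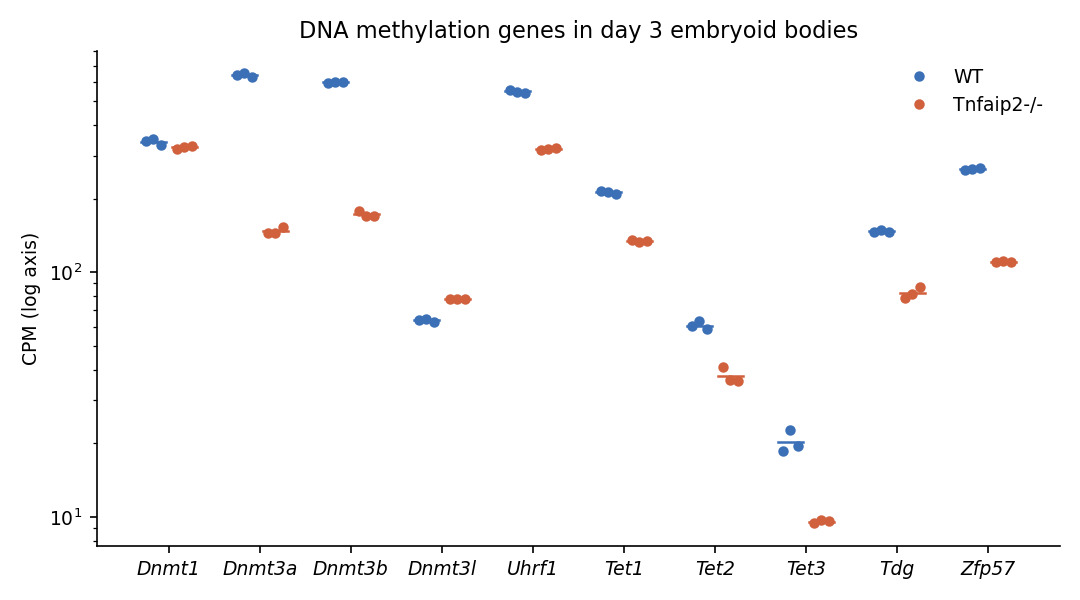
CPM on a log axis for each of the 10 genes in each sample, with WT EBs in blue, Tnfaip2-/- EBs in orange and the mean of 3 samples as a bar. Dnmt3a and Dnmt3b show the widest gaps between the genotypes, Dnmt1 the narrowest, and Dnmt3l is the gene whose Tnfaip2-/- samples lie above the WT samples.

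The de novo methyltransferase genes fell most. Dnmt3a (ENSMUSG00000020661, chromosome 12, 3806007 to 3914443 in GRCm38) had 643, 651 and 629 CPM in the WT EBs and 145, 144 and 153 CPM in the Tnfaip2-/- EBs. The 3 WT samples were high, the 3 Tnfaip2-/- samples low, and the groups did not overlap. The fall was 4.35-fold, a change of -2.12 in log2 units (SE 0.0271, adjusted p = 8.25e-46) from edgeR, where SE is the standard error, and beyond 1.5-fold its adjusted p was 1.48e-41. Of all tested genes, 0.992% had a lower log2 fold change, and the gene ranked at position 3 by p-value. Dnmt3b (ENSMUSG00000027478, chromosome 2, 153649450 to 153687730) had 596, 601 and 598 CPM in WT EBs and 178, 170.4 and 170.0 CPM in Tnfaip2-/- EBs. Again every WT sample was higher than every Tnfaip2-/- sample, and the samples of a genotype lay close together. The fall was 3.46-fold, with a change of -1.79 in log2 units (SE 0.0260, adjusted p = 7.60e-44), and 1.39% of tested genes had a lower log2 fold change.

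Dnmt3c, a rodent copy of Dnmt3b that acts in the male germ line, moved the same way at a low level. Its counts were 156, 152 and 150 in WT EBs against 57, 41 and 40 in Tnfaip2-/- EBs, a change of -1.69 in log2 units (SE 0.133, adjusted p = 1.96e-15) from edgeR. The Tnfaip2-/- samples were low and did not overlap with the WT samples. Of the 51-base windows in transcripts of Dnmt3b, 51 bases being the read length, 9.63% also occur in Dnmt3c, and uniquely mapped reads cannot cover these. The counts of Dnmt3b in WT EBs were 13515, 13447 and 14060.

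The cofactor gene Dnmt3l was the exception and was higher in Tnfaip2-/- EBs. Dnmt3l (ENSMUSG00000000730, chromosome 10, 78041947 to 78063622) had 63.6, 64.6 and 62.6 CPM in WT EBs and 77.9, 77.5 and 77.6 CPM in Tnfaip2-/- EBs. All Tnfaip2-/- samples were above all WT samples. The rise was 1.22-fold, a change of 0.29 in log2 units (SE 0.0358, adjusted p = 1.17e-09) from edgeR, and it did not pass the 1.5-fold test (adjusted p = 1). Aire, on the opposite strand, overlaps 2.24% of the exon bases of Dnmt3l, and the library kit does not mark strand. Aire rose from 169, 161 and 195 counts to 448, 420 and 485 counts (log2 fold change 1.40, adjusted p = 5.44e-21 in edgeR), while Dnmt3l went from 1441, 1446 and 1470 counts to 1771, 1698 and 1722 counts. Within the shared bases, reads from either strand cannot be told apart. The other exon bases of Dnmt3l overlap no exon of another annotated gene.

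Promoters of the genes that fell most and of those that moved least are shown for comparison. RefSeq windows of 300 bases, from 250 before to 50 after a start (GRCm38.p6), were found for all 10 genes, 19 windows in all. Those printed here are Dnmt3a at its start inside the gene (chr12:3891494-3891793, forward strand), Dnmt3b (chr2:153649199-153649498, forward strand), Zfp57 (chr17:37000913-37001212, forward strand), Dnmt1 (chr9:20952574-20952873, reverse strand) and Dnmt3l (chr10:78055085-78055384, forward strand), each 5′ to 3′ on the gene's strand with CG dinucleotides in capitals.
Dnmt3a: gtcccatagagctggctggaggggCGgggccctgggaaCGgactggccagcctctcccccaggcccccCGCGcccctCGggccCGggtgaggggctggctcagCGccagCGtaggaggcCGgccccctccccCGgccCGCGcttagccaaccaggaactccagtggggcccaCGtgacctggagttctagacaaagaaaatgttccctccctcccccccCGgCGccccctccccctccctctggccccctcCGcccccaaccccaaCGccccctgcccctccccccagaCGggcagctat
Dnmt3b: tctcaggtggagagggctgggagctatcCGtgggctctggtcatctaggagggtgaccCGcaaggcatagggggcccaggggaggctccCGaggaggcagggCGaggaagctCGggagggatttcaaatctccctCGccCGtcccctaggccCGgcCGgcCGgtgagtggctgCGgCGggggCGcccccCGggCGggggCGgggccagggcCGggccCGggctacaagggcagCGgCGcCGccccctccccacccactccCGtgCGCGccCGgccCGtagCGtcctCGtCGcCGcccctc
Zfp57: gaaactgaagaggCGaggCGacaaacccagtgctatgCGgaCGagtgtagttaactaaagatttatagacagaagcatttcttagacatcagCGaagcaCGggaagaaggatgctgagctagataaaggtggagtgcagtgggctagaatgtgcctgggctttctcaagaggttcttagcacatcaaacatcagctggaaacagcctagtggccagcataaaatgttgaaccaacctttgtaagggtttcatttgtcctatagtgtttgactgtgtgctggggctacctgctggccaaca
Dnmt1: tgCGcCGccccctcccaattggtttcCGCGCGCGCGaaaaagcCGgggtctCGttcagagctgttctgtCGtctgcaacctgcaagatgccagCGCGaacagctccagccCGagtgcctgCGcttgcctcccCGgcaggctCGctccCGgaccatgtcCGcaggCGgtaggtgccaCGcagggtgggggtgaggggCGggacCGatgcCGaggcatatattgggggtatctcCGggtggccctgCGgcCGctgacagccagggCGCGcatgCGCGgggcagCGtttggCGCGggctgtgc
Dnmt3l: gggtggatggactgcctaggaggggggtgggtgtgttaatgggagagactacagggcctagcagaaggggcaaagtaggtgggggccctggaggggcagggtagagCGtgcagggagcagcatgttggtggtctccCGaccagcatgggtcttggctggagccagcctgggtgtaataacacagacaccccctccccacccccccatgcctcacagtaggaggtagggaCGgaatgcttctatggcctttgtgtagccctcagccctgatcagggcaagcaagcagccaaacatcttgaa
The windows hold 18 CG dinucleotides for Dnmt3a, 30 for Dnmt3b, 6 for Zfp57, 33 for Dnmt1 and 3 for Dnmt3l, against a median of 7 (quartiles 3 and 20) over all 32851 windows. The other windows of these genes hold 46 and 47 CG dinucleotides for Dnmt3a, 9 and 4 for Zfp57, 12 and 2 for Dnmt1 and 6 and 4 for Dnmt3l, so that the contrast between genes depends on the start chosen. Among the printed windows, the E2F motif TTTCGCGC or TTTGGCGC, searched on both strands, occurs 2 times in Dnmt1 and in none of the other 4, and 0.813% of all windows hold it. The GC box GGGCGG, on either strand, occurs 2 times in Dnmt3a, 4 times in Dnmt3b and 2 times in Dnmt1, and 35.7% of all windows hold it. The CCAAT box CCAAT, on either strand, occurs 3 times in Dnmt1 and in none of the other 4 printed windows (37.4% of all windows). The PRDM14 motif GGTCTCTAA was in none of the 19 windows (0.256% of all windows). In windows not printed, the E2F motif occurs 1 time, in 1 of the 2 windows of Uhrf1, which fell. There the GC box occurs 6 and 7 times for Dnmt3a, 1 and 2 times for Dnmt3l, 1 and 3 times for Uhrf1, 1 time each for Tet1 and Tet2 and 2 times for Tet3. The CCAAT box occurs 5 times in 1 window of Dnmt1, 3 and 2 times for Uhrf1, and 1 time each in a window of Zfp57, Tet3 and Tdg. Such matches describe letters and do not show binding.

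Maintenance methylation rests on a pair of genes that parted in these samples. Dnmt1 (ENSMUSG00000004099, chromosome 9, 20907209 to 20959888) had 345, 349.7 and 331 CPM in WT EBs and 319.6, 324 and 329 CPM in Tnfaip2-/- EBs. The Tnfaip2-/- samples were all lower on this scale, by a margin smaller than the spread within the WT samples, while with plain totals (340.4, 348 and 327 against 323, 326 and 332 CPM) the groups overlapped. Its change of -0.08 in log2 units (SE 0.0258, adjusted p = 0.00778) was the smallest change of the 10 genes, beyond 1.5-fold its adjusted p was 1, and with upper quartile normalization the change of -0.05 no longer passed the test (adjusted p = 0.0794). Over 11 alternatives its log2 fold change ranged from -0.11 to -0.05, and that adjusted p was the largest. Uhrf1 (ENSMUSG00000001228, chromosome 17, 56303321 to 56323486), which encodes the protein that brings DNMT1 to hemimethylated DNA, had 558, 547 and 543 CPM in WT EBs and 315, 318 and 322 CPM in Tnfaip2-/- EBs. The groups were far apart in every sample. The fall was 1.72-fold, a change of -0.79 in log2 units (SE 0.0244, adjusted p = 1.51e-30) from edgeR, and beyond 1.5-fold the adjusted p was 1.84e-10. Of the 51-base windows of Uhrf1, 15.1% also occur in the pseudogenes Gm5648 and Gm15953. The counts of Gm5648 were 573, 522 and 570 in WT EBs against 301, 318 and 338 in Tnfaip2-/- EBs, lower in every Tnfaip2-/- sample as for Uhrf1, and reads of Uhrf1 assigned to a copy cannot be told apart from reads of the copy.

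**Figure D2:**
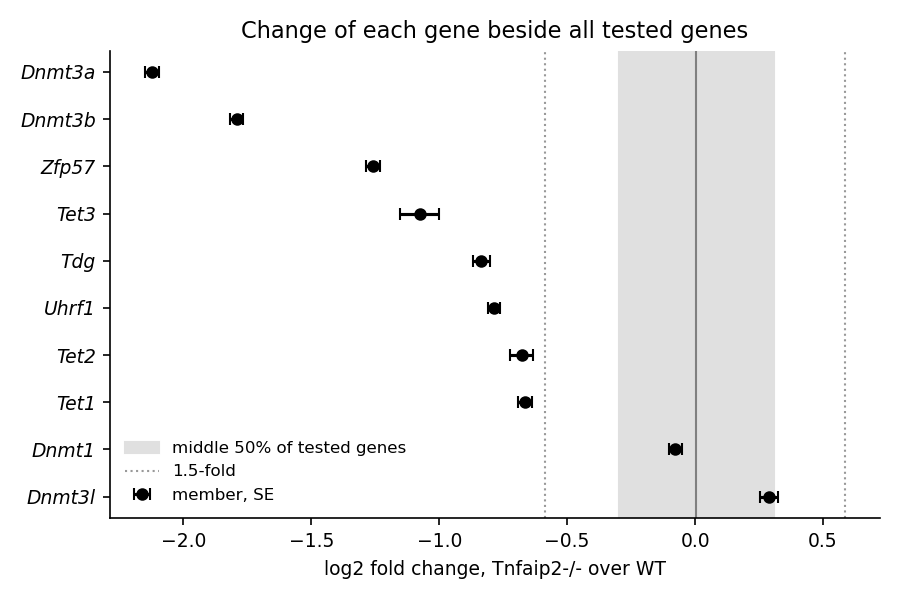
Log2 fold change of each of the 10 genes with its SE, Tnfaip2-/- over WT (horizontal axis, genes ordered by their change), beside the range from the lower to the upper quartile of all tested genes in grey and the 1.5-fold limits as dotted lines. Dnmt1 and Dnmt3l lie within the grey band and the other 8 genes lie beyond the lower 1.5-fold limit.

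The makeup of the methyltransferase transcripts changed from mostly de novo to mostly maintenance and cofactor transcripts. Per kilobase of annotated exon, Dnmt3b was the most abundant of the 4 Dnmt genes in WT EBs, at 117 ± 0.411 CPM per kb (SD, n = 3), followed by Dnmt1 at 46.4 ± 1.32, Dnmt3a at 38.5 ± 0.675 and Dnmt3l at 21.3 ± 0.336 CPM per kb. In Tnfaip2-/- EBs, Dnmt1 came first at 43.9 ± 0.646 CPM per kb, then Dnmt3b at 33.8 ± 0.896, Dnmt3l at 26.0 ± 0.0717 and Dnmt3a at 8.85 ± 0.277 CPM per kb. Dnmt3a and Dnmt3b together made up the larger part of the summed level of the 4 genes in WT EBs, with 52.5% for Dnmt3b and 17.2% for Dnmt3a, and the smaller part in Tnfaip2-/- EBs, with 30.0% and 7.86%. With the length of the longest annotated transcript, chosen as a scale after the data were seen, Dnmt3a (66.2 CPM per kb) lay above Dnmt1 (58.3) in WT EBs, and Dnmt3l (42.6) above Dnmt3b (40.0) in Tnfaip2-/- EBs.

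**Figure D3:**
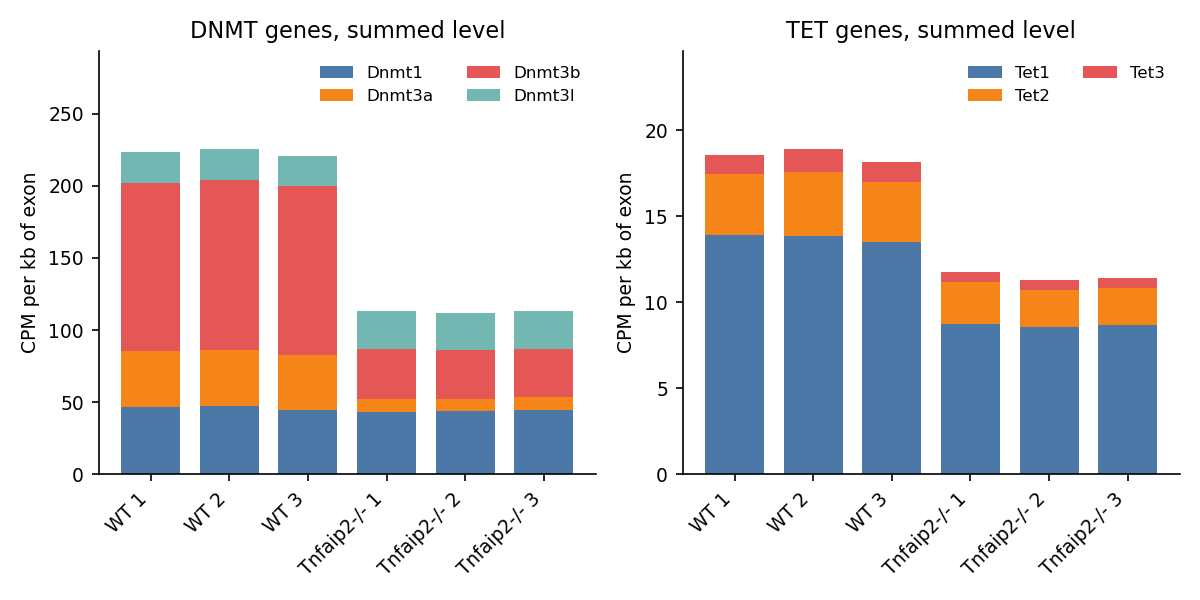
Stacked CPM per kb of exon in each sample for the 4 Dnmt genes (left) and the 3 Tet genes (right), from 0. The summed Dnmt level was 223 ± 2.48 CPM per kb in WT EBs and 113 ± 0.664 in Tnfaip2-/- EBs (SD, n = 3), with most of the loss in Dnmt3b.

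Ratios between these genes within a sample, of levels per kb of exon, do not depend on the scaling between samples. The ratio of Dnmt3a plus Dnmt3b to Dnmt1 was 3.32, 3.31 and 3.45 in WT EBs and 1.01, 0.958 and 0.952 in Tnfaip2-/- EBs, a log2 difference of -1.79. The ratio of Dnmt3l to Dnmt3a plus Dnmt3b was 0.137, 0.138 and 0.135 in WT EBs and 0.598, 0.617 and 0.612 in Tnfaip2-/- EBs, a log2 difference of 2.16. The first was high in every WT sample and the second high in every Tnfaip2-/- sample. The ratio of Dnmt3b to Dnmt3a was 3.02, 3.01 and 3.10 in WT EBs and 4.002, 3.85 and 3.63 in Tnfaip2-/- EBs, so that Dnmt3a had fallen further, by a log2 difference of 0.33. The ratio of Uhrf1 to Dnmt1 was 2.80, 2.71 and 2.84 in WT EBs and 1.71, 1.70 and 1.70 in Tnfaip2-/- EBs, a log2 difference of -0.71. None of these 4 ratios overlapped between the genotypes. Each gave p = 0.1 in a two-sided exact permutation test, the smallest that 3 against 3 samples allow, and 0.12 after Benjamini-Hochberg adjustment over 6 ratios, so that none could pass 0.05.

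Genes of active demethylation were lower as well. Tet1 (ENSMUSG00000047146, chromosome 10, 62804570 to 62908996), the main TET gene of ESCs, had 215, 214 and 209 CPM in WT EBs and 135, 133 and 134 CPM in Tnfaip2-/- EBs. The WT samples were all higher, and the fall was 1.59-fold, a change of -0.66 in log2 units (SE 0.0280, adjusted p = 2.39e-25) from edgeR. Tet2 (ENSMUSG00000040943, chromosome 3, 133463679 to 133545139) had 60.2, 63.1 and 58.4 CPM in WT EBs and 41.0, 36.4 and 36.1 CPM in Tnfaip2-/- EBs, without overlap. Tet3 (ENSMUSG00000034832, chromosome 6, 83362373 to 83459084) had 18.6, 22.6 and 19.5 CPM in WT EBs and 9.42, 9.68 and 9.60 CPM in Tnfaip2-/- EBs, also without overlap, and fell 2.11-fold. The log2 fold changes were -0.68 for Tet2 (SE 0.0455, adjusted p = 8.31e-18) and -1.08 for Tet3 (SE 0.0754, adjusted p = 3.43e-17). Beyond 1.5-fold, the adjusted p in edgeR was 0.00543 for Tet1, 0.0410 for Tet2 and 7.35e-08 for Tet3. For Tet2 it ranged from 0.00225 to 0.782 over 11 alternatives and for Tet1 from 0.00130 to 0.101, each highest with DESeq2, so whether either fell by more than 1.5-fold depends on the setting.

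Within the TET family the order of levels was the same in both genotypes. Tet1 had 13.7 ± 0.212 CPM per kb in WT EBs (SD, n = 3), Tet2 3.59 ± 0.143 and Tet3 1.21 ± 0.125 CPM per kb. In Tnfaip2-/- EBs these levels were 8.67 ± 0.0815, 2.24 ± 0.164 and 0.573 ± 0.00805 CPM per kb. By the longest transcript's length they were 14.8, 6.60 and 1.85 CPM per kb in WT EBs and 9.33, 4.12 and 0.877 in Tnfaip2-/- EBs. Over all 10 genes, Uhrf1 had the highest level, 129 ± 1.81 CPM per kb in WT EBs and 74.8 ± 0.810 in Tnfaip2-/- EBs, and Tet3 the lowest. Tet1 and Dnmt3a lay within their spread of each other in Tnfaip2-/- EBs, but not with the longest transcript's length (9.33 and 15.2 CPM per kb). The ratio of Tet1 to Tet2 plus Tet3 was 2.97, 2.72 and 2.92 in WT EBs and 2.92, 3.13 and 3.20 in Tnfaip2-/- EBs. These values overlapped between the genotypes (log2 difference 0.10, two-sided exact permutation p = 0.3, adjusted 0.3). Without Tnfaip2-/- replicate 1 they did not overlap (log2 difference 0.14, exact permutation p = 0.1), so the overlap rests on that sample. The ratio of all Tet genes to Dnmt1, Dnmt3a and Dnmt3b was 0.0919, 0.0927 and 0.0907 in WT EBs and 0.135, 0.132 and 0.131 in Tnfaip2-/- EBs, higher in all Tnfaip2-/- samples by a log2 difference of 0.53 (exact permutation p = 0.1, adjusted 0.12).

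The glycosylase gene Tdg, whose product removes oxidised bases, was lower too. Tdg (ENSMUSG00000034674, chromosome 10, 82629828 to 82650799) had 146, 149 and 146 CPM in WT EBs and 78.6, 81.7 and 86.9 CPM in Tnfaip2-/- EBs. The WT samples lay together and well above the Tnfaip2-/- samples. The fall was 1.78-fold, a change of -0.84 in log2 units (SE 0.0332, adjusted p = 2.67e-26) from edgeR, and beyond 1.5-fold the adjusted p was 2.18e-09. Of its 51-base windows, 40.9% also occur in other annotated genes, the largest share of the 10 genes. Counts of the copy Tdg-ps were 1324, 1364 and 1477 in WT EBs against 770, 769 and 778 in Tnfaip2-/- EBs, and those of the copy Gm9855 512, 464 and 494 against 238, 255 and 253. Both copies were lower in every Tnfaip2-/- sample, with log2 fold changes of -0.81 and -0.94 (adjusted p = 1.88e-21 and 1.12e-16 in edgeR), and reads of Tdg assigned to a copy cannot be told apart from transcription of the copy.

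The imprint guardian Zfp57 fell more than any gene of the group outside the de novo pair. Zfp57 (ENSMUSG00000036036, chromosome 17, 37001163 to 37010635), a KRAB zinc finger gene, had 263, 264 and 266 CPM in WT EBs and 110.2, 111 and 110.3 CPM in Tnfaip2-/- EBs. The samples of each genotype were nearly equal, and the genotypes lay far apart. The fall was 2.39-fold, a change of -1.26 in log2 units (SE 0.0278, adjusted p = 2.49e-36) from edgeR, and beyond 1.5-fold the adjusted p was 2.01e-26. None of its 51-base windows occurs in another annotated gene. Its partner gene Trim28 had 1763, 1782 and 1722 CPM in WT EBs and 1955, 1961 and 1986 CPM in Tnfaip2-/- EBs, a rise of 0.16 in log2 units (adjusted p = 8.74e-09).

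The 10 genes lie on 7 chromosomes, and the de novo genes fell further than the genes around them. Chromosome 17, which carries Uhrf1 and Zfp57, had the lowest median log2 fold change of these chromosomes, -0.25 over its tested genes. Relative to that median the change of Uhrf1 was -0.53, and relative to the medians of their own chromosomes the changes of Dnmt3a and Dnmt3b were -1.93 and -1.88. The median of chromosome 10, with Dnmt3l, Tet1 and Tdg, was -0.18, that of chromosome 12, with Dnmt3a, was -0.19, and that of chromosome 3, with Tet2, was -0.20. Within 1 Mb of Dnmt3a, 27 other genes were tested, with a median log2 fold change of -0.20, and none fell as far. Within 1 Mb of Dnmt3b, 36 other genes were tested, with a median of 0.17, and the lowest was the adjacent Dnmt3c. Other members were less set apart: 2 of 29 tested neighbours fell further than Zfp57, 11 of 56 further than Uhrf1 (neighbour median -0.35) and 16 of 48 further than Dnmt1. For Tet1, Tet2 and Tdg it was 1 of 25, 1 of 9 and 1 of 34, for Tet3 2 of 40, and 2 of 28 rose further than Dnmt3l.

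Other genes shared the profile of the 3 genes that fell most. Likeness was measured as the Euclidean distance between centred log2 CPM over the 6 samples, where 0 means the same profile. Nearest to Dnmt3a were Miat (0.0753, log2 fold change -2.08), Zfhx2 (0.0827, log2 fold change -2.15) and St6gal2 (0.119, log2 fold change -2.06). Nearest to Dnmt3b were Klf15 (0.0444, log2 fold change -1.81), Sfxn1 (0.0498, log2 fold change -1.82) and Arl4a (0.109, log2 fold change -1.72). Nearest to Zfp57 were Hsd17b11 (0.0510, log2 fold change -1.28), Abcc4 (0.0618, log2 fold change -1.24) and Fgf15 (0.0672, log2 fold change -1.24). With 2 groups of close replicates, such a distance reflects little more than a similar fold change.

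Around the 10 genes, the pathway moved unevenly. The counts of the lists below stand beside 34.0% of all tested genes called higher and 33.7% called lower, and a list near these shares is not set apart by its count. Of other genes of base excision repair and demethylation, 6 were higher and 7 lower among 17 tested (median log2 fold change -0.11). These counts were 4 and 4 with the DESeq2 Wald test, and 8 and 6 with upper quartile normalization. The largest changes, as log2 fold changes, were those of Gadd45g (-1.89), Gadd45b (1.09), Apex1 (-0.94) and Neil2 (0.74), where Gadd45g and Gadd45b encode stress proteins linked to demethylation and Apex1 and Neil2 encode repair enzymes. Apex1 shares 61.7% of its exon bases with Pip4p1 on the opposite strand, and reads from the shared bases cannot be told apart. Parp1, the most abundant per kb, did not pass the test (log2 fold change 0.05, adjusted p = 0.0798 in edgeR). Of methyl-CpG binding proteins, the readers of the mark, 5 were higher and 4 lower among 10 tested (median 0.05), with the largest changes in Zbtb4 (0.83), Mbd2 (0.69), Mbd6 (-0.49) and Mbd1 (0.35), and with the most abundant per kb, Mbd3, at -0.20. In edgeR's 1.5-fold test the lowest adjusted p among the readers was 0.0539, for Zbtb4, above 0.05.

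Partners that protect or direct methylation changed in both directions. Of imprint and heterochromatin partners, 6 were higher and 6 lower among 15 tested (median log2 fold change -0.02). Dppa3, whose protein displaces UHRF1 from chromatin, had 4.59, 4.29 and 4.68 CPM in WT EBs and 29.4, 29.4 and 27.7 CPM in Tnfaip2-/- EBs, a change of 2.67 in log2 units (SE 0.0770, adjusted p = 8.26e-32) from edgeR. Every Tnfaip2-/- sample was above every WT sample, opposite in direction to Uhrf1. Further changes were those of Daxx (-0.78), Cdca7 (-0.63) and Cbx5 (-0.58). Of histone enzymes and CpG binding genes linked to DNA methylation, 5 were higher and 8 lower among 13 tested (median -0.32), with the largest changes in Prdm14 (1.03), Kdm2b (-0.95), Kdm1b (0.77) and Nsd1 (-0.65) and with Kdm1a, the most abundant per kb, at 0.30. Prdm14, a known repressor of the de novo methyltransferase genes, had 12.2, 11.7 and 11.4 CPM in WT EBs and 23.9, 25.1 and 23.2 CPM in Tnfaip2-/- EBs. It was higher in all Tnfaip2-/- samples (adjusted p = 8.24e-19 in edgeR). Among the Dnmt genes Dnmt3a and Dnmt3b were lower and Dnmt3l was higher, and the part of Prdm14 in these changes was not tested.

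Genes that supply or use the methyl donor were mostly lower. The methyl donor cycle makes S-adenosylmethionine from single carbon units and uses it. Of its genes, 2 were higher and 18 lower among 21 tested (median log2 fold change -0.36). The list holds genes of synthesis and of use, so that its count does not measure supply alone. Tdh, which feeds threonine into this supply in mouse ESCs, had 200.5, 202 and 199.7 CPM in WT EBs and 95.9, 94.0 and 92.6 CPM in Tnfaip2-/- EBs, a change of -1.09 in log2 units (SE 0.0295, adjusted p = 6.04e-33) from edgeR. The Tnfaip2-/- samples were all low, without overlap. Other changes were those of Adk (-0.90), Mthfd1l (-0.86) and Gnmt (-0.85), and Ahcy, the most abundant per kb, changed by -0.34. Gnmt was low, with 32, 36 and 36 counts in WT EBs against 22, 16 and 18 in Tnfaip2-/- EBs. The 2 higher genes were Mtr (0.32) and Amt (0.67), named after their values were seen. Of genes that make or use 2-oxoglutarate, the cosubstrate of TET enzymes, or that act on its competitors succinate, fumarate and 2-hydroxyglutarate, 5 were higher and 5 lower among 15 tested (median -0.02), with the largest changes in D2hgdh (0.72), Psat1 (-0.47), Sdhd (-0.29) and Idh1 (0.22), of which Sdhd, a subunit gene of succinate dehydrogenase, was the most abundant per kb.

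Genes whose promoters are kept silent by DNA methylation in somatic cells were mostly higher. Of 19 germline genes, 15 were higher and 4 lower among 19 tested (median log2 fold change 0.70), and 8 were higher beyond 1.5-fold, beside 34.0% called higher and 9.05% higher beyond 1.5-fold over all tested genes. Dazl had 10.0, 8.93 and 9.24 CPM in WT EBs and 33.1, 29.7 and 31.2 CPM in Tnfaip2-/- EBs, a change of 1.74 in log2 units (SE 0.0663, adjusted p = 4.97e-27) from edgeR. Its Tnfaip2-/- samples were all higher, opposite in direction to Dnmt3a and Dnmt3b. Two-cell-like and germ cell markers, a list that shares Dazl and Ddx4 with this one, rose with it, 10 of 10 tested (median 2.47), from summed levels of 37.9, 36.5 and 36.7 CPM in WT EBs to 111, 108 and 110.2 CPM in Tnfaip2-/- EBs. The most abundant of them per kb was Ddx4, and their part in the rise of the germline genes was not tested, nor was that of the Dnmt genes. Further changes were those of Taf7l (2.18), Hormad1 (1.67) and Dnmt3c (-1.69), and the most abundant per kb was Rpl10l (0.20). Sycp1 (-0.33, adjusted p = 0.00205 in edgeR) and Sycp3 (-0.45, adjusted p = 2.49e-04) were lower, in the direction of Dnmt3a and Dnmt3b. These genes were named after their values were seen. With the DESeq2 Wald test, 13 germline genes were called higher and 4 lower. Methylation itself was not measured in these samples.

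**Figure D4:**
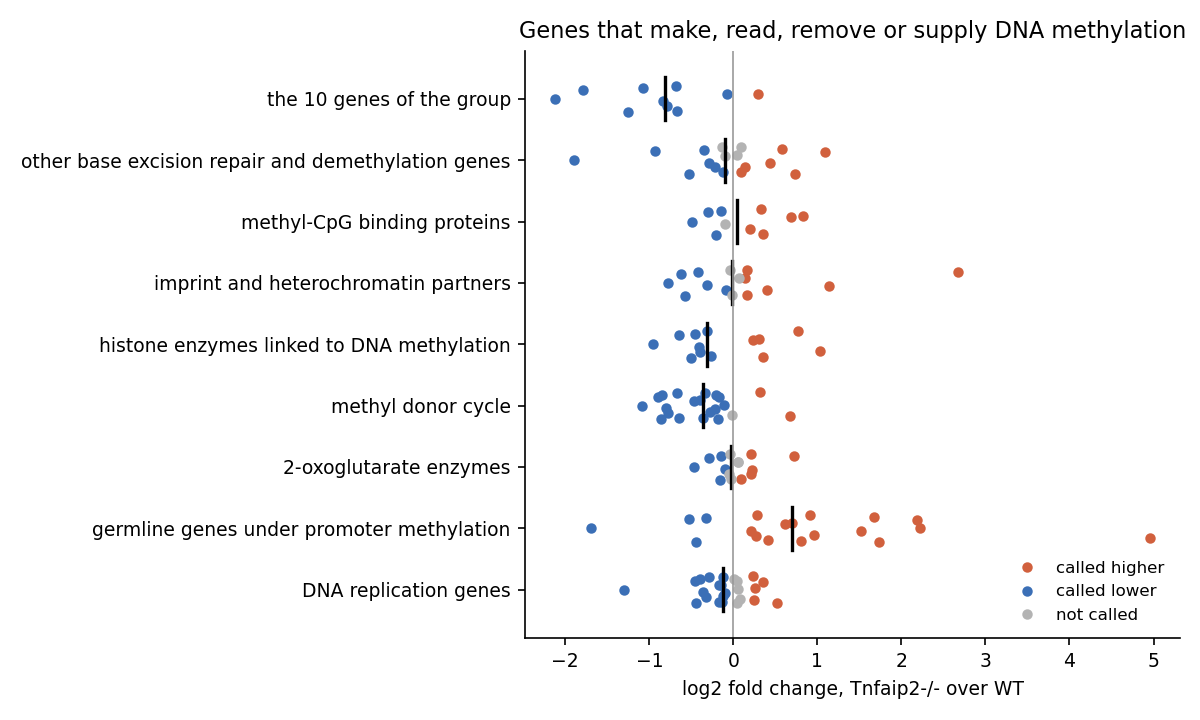
Log2 fold change, Tnfaip2-/- over WT, of each tested gene in the group of 10 genes and in 8 related lists, with the list median as a black bar and colours for genes called higher, lower or not called at an adjusted p of 0.05. The group of 10 has the lowest median of the 9 lists and the germline genes the highest, and the point farthest right, Asz1, rests on 0, 1 and 2 counts in the WT EBs.

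Cell division genes changed less than most of the 10 genes. Of 24 genes of DNA replication and mitosis, with which Dnmt1 and Uhrf1 are known to be transcribed, 5 were higher and 14 lower among 24 tested, with a median log2 fold change of -0.12. Their summed level was 6774, 6788 and 6759.8 CPM in WT EBs and 6483, 6415 and 6516 CPM in Tnfaip2-/- EBs. The sums were slightly lower in every Tnfaip2-/- sample, as was Dnmt1. They pool genes that went both ways. The 5 higher genes, named after their values were seen, were Top2a, Mki67, Ccnb1, Gins4 and Aurka, beside the 14 lower ones. The largest changes were those of Gins2 (-1.30), Top2a (0.52), Mcm7 (-0.46) and Rrm2 (-0.44), and the most abundant per kb was Mcm5 (-0.14). Gins2 shares 67.3% of its exon bases with Gse1 on the opposite strand, and reads from the shared bases cannot be told apart. The part of cell division in the lower level of Uhrf1 was not tested.

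Markers of cell state moved in both directions in Tnfaip2-/- EBs. Of 11 formative pluripotency markers, of the state in which Dnmt3a and Dnmt3b are known to be high, 0 were higher and 9 lower among 11 tested, and their summed level was 1299, 1297 and 1265 CPM in WT EBs and 1018, 1026 and 1043 CPM in Tnfaip2-/- EBs. The count called lower was 7 with upper quartile normalization and with the DESeq2 Wald test, and 8 with a replicate block. The sums were lower in every Tnfaip2-/- sample, with the largest log2 fold changes in Sox3 (-1.58), Sall2 (-1.10), Grhl2 (-0.96) and Lef1 (-0.96), while the most abundant per kb, Utf1, was at -0.06 (adjusted p = 0.0465 in edgeR) with groups that overlap. Of 16 naive pluripotency markers, 9 were higher and 7 lower among 16 tested, and their summed level was 3154, 3095 and 3174 CPM in WT EBs and 2839, 2851 and 2838 CPM in Tnfaip2-/- EBs. The median log2 fold change of these markers was 0.25. Beyond 1.5-fold in edgeR, 4 of them were higher and 6 lower, beside 9.05% higher and 6.63% lower of all tested genes. Pou5f1 and Dppa5a carry the lower sums, and without them, a choice made after the data were seen, the sums were 1405, 1410.3 and 1409.9 CPM in WT EBs and 1811, 1813 and 1841 CPM in Tnfaip2-/- EBs, higher in every Tnfaip2-/- sample. The largest changes were those of Dppa3 (2.67), Tcl1 (-1.82), Klf4 (-1.49) and Tbx3 (-1.45), the most abundant per kb, Dppa5a, was at -0.69, and others that rose, named after their values were seen, were Klf2 (0.98), Zfp42 (0.90) and Nanog (0.26). Of 15 primitive streak and mesoderm markers, 1 was higher and 12 lower among 14 tested, and their summed level was 109, 110.0 and 106 CPM in WT EBs and 30.1, 27.0 and 31.3 CPM in Tnfaip2-/- EBs. The Tnfaip2-/- sums were low in every sample, with T, the most abundant per kb in WT EBs, near the floor in each of them. Of 12 neural ectoderm markers, 1 was higher and 5 lower among 6 tested, and their summed level was 116, 118 and 109.9 CPM in WT EBs and 57.2, 55.2 and 55.6 CPM in Tnfaip2-/- EBs. Sox1, the most abundant per kb, changed by -1.61. The part of these shifts in the lower levels of Dnmt3a, Dnmt3b, Zfp57 and the TET genes was not tested.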

How the data were processed

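RNA was sequenced from 6 EB samples with an unstranded kit. Per the labels and methods, the authors mapped reads to GRCm38 with TopHat2 2.1.0, counted unique reads per gene with featureCounts 1.5.0, and deposited raw counts; a strand setting for counting is not given in the sources used here. Counts were filtered by group with filterByExpr (minimum count 10), scaled by TMM and compared in edgeR 4.0.16 (R 4.3.3) by the quasi-likelihood test and by glmTreat against 1.5-fold, adjusted over all 17849 tested genes. DESeq2 1.42.0 served as an alternative. The edgeR test was tried on simulated counts; it missed changed genes of low counts and so failed the criterion set at the start, and it passed criteria set after that was seen, which leave low counts out of the recovery asked for and take the share of false calls over repeated simulations. That share lay slightly above the nominal level, and further above it in the simulation run at the start. SEs were derived from the test statistic, lengths and positions from the GENCODE annotation. The members and lists were chosen with earlier results of these data known. Each list names the 4 called genes with the largest change, mean CPM of at least 1 and no overlap between groups, and its most abundant gene per kb; nearest profiles need a mean CPM of at least 1. Whsc1, Oct6 and Gm14490 of the lists were not in the table under these symbols. The study calls the samples biological replicates without describing how they were kept apart, and each genotype is 1 line, so p-values measure the spread between these samples. The squared differences between replicates were 1.36 to 1.95 times sampling noise, so no library was counted as a duplicate.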

Additional observations from a re-analysis of the deposited data

How the results depend on the processing

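The direction of each of the 10 genes was the same in 11 alternatives, while the count called ranged from 9 to 10 and the count beyond 1.5-fold from 6 to 8. Tet2 lost its 1.5-fold call with upper quartile normalization (adjusted p = 0.132), without WT replicate 2 (0.155), without Tnfaip2-/- replicate 2 (0.189) or 3 (0.164), and with DESeq2 (0.782), where Tet1 lost it too (0.101). The lowest and highest log2 fold changes were -2.16 and -2.10 for Dnmt3a, -1.82 and -1.77 for Dnmt3b, -1.28 and -1.23 for Zfp57, and -0.11 and -0.05 for Dnmt1. Dnmt1 lost its call with upper quartile normalization. With the DESeq2 Wald test, 1724 genes in place of 2798 passed beyond 1.5-fold, 4 in place of 7 genes of base excision repair and demethylation were called lower, and so were 2 in place of 1 definitive endoderm markers and 1 in place of 2 trophoblast markers; the cause was not tested. Adding a replicate block gave 11841 called genes, 10 of the 10 genes of the group among them. No pairing by number was seen: deviations of same-numbered samples correlated at -0.0264 on average and those of differently numbered samples at 0.0132. With plain totals in place of TMM, 9 of the 10 genes did not overlap, Dnmt1 being the exception. The log2 ratio of the summed naive markers was -0.14, and 0.37 without Pou5f1 and Dppa5a, left out after the data were seen. Counts per gene do not separate the isoforms of Dnmt3a or Dnmt1.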

Other observations

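Further cell types and states showed different shifts. Of 11 trophoblast markers, 6 were higher and 2 lower among 9 tested, with a summed level of 59.1, 54.8 and 57.6 CPM in WT EBs and 211, 206 and 210.0 CPM in Tnfaip2-/- EBs. Tfap2c, the most abundant per kb, had 22.6, 20.5 and 21.9 CPM in WT EBs and 173, 169 and 171 CPM in Tnfaip2-/- EBs, while Prl3d1 was at 0 in all samples and Elf5 was at or below 3 counts in each. Nearly all of the rise in this sum was Tfap2c, which pluripotent and germ cells also express. Without it, a choice made after the data were seen, the sums were 36.5, 34.3 and 35.7 CPM in WT EBs and 38.1, 37.1 and 38.6 CPM in Tnfaip2-/- EBs. Other changes were those of Esx1 (2.28), Ascl2 (1.54) and Krt8 (-0.19). Of 13 extraembryonic endoderm markers, 6 were higher and 7 lower among 13 tested, with a summed level of 477, 480.5 and 469 CPM in WT EBs and 697, 686 and 685 CPM in Tnfaip2-/- EBs. The largest log2 fold changes were those of Apoa1 (-2.59), Apob (-2.10), Ttr (-1.95) and Rhox5 (1.75), and the most abundant per kb, Sparc, changed by 0.59. Of 8 definitive endoderm markers, 3 were higher and 1 lower among 7 tested, with a summed level of 27.6, 28.0 and 26.7 CPM in WT EBs and 28.9, 30.8 and 31.9 CPM in Tnfaip2-/- EBs. The largest changes were those of Foxa1 (1.94), Foxa2 (-1.16), Hhex (0.74) and Sox17 (0.45), and Gata4, the most abundant per kb, did not pass edgeR's test (-0.04, adjusted p = 0.715). Of 11 two-cell-like and germ cell markers, 10 were higher and 0 lower among 10 tested, with a summed level of 37.9, 36.5 and 36.7 CPM in WT EBs and 111, 108 and 110.2 CPM in Tnfaip2-/- EBs. The largest changes were those of Zscan4f (2.72), Zscan4c (2.66), Zscan4d (2.32) and Prdm1 (1.92), and Ddx4, the most abundant per kb, changed by 0.92. The Zscan4 genes are near-identical copies, and their reads can be split between them. Of 8 fibroblast markers, 0 were higher and 3 lower among 5 tested, with a summed level of 210.5, 218 and 219 CPM in WT EBs and 93.3, 87.4 and 94.1 CPM in Tnfaip2-/- EBs. Nearly all of this level was Vim, which is also expressed by other cells and changed by -1.28, while Col1a2 changed by -1.50. In neural ectoderm, the counts of Zic1 were 111, 94 and 107 in WT EBs against 2, 0 and 2 in Tnfaip2-/- EBs, while Olig3 changed by -2.31 and Sox21 by 1.07. In mesoderm, the counts of Lhx1 were 50, 63 and 65 against 4, 4 and 1, those of Fgf8 325, 342 and 324 against 14, 12 and 11, and those of Mixl1 174, 155 and 170 against 17, 4 and 15.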
